A study of Mus musculus with 6 samples.

Results

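The Ifit genes (Ifit2, Ifit3 and Ifit1) and the chemokine genes Cxcl9, Cxcl10 and Cxcl11 each form a tight cluster of interferon-response genes, and DNase I hotspots across both clusters were compared between macrophages that received Dex before lipopolysaccharide (LPS), Dex late in LPS, or LPS alone. A hotspot is a stretch of the genome with more DNase I cuts than its surroundings, which marks accessible chromatin. The Ifit window was chr19:34590000-34740000 and the Cxcl window chr5:92720000-92820000, both in the mm9 build. Every hotspot of the 6 libraries that overlapped a window was taken, and hotspots that shared at least 1 position were joined into 1 region. This gave 40 of the 59069 regions of the series, 27 in the Ifit window and 13 in the Cxcl window. The windows were set by position and not by a cutoff on any measured value, but with earlier results of these data known. Regions are named by the distance of their start from the start of the window, since no mm9 gene annotation was used, and no region is assigned to a single gene.

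At the regions that all 6 lists held, the values with Dex before LPS tended to lie below those with LPS alone. The median log2 fold change of maximum tag density was -0.21 in the Ifit window and -0.35 in the Cxcl window, against 0.00 over all shared regions of the genome (0.00478 before rounding). With 1 library left out, the Ifit median ran from -0.40 (without LPS replicate 1) to -0.12 (without pre-treated replicate 1), and the Cxcl median from -0.44 (without LPS replicate 1) to -0.21 (without LPS replicate 2). No region of either window passed an adjusted p of 0.05 in any comparison of the limma fit over the 3 groups, so these are values and not calls. Under 1 alternative fit, given at the end with its values, 1 region of each window passed in pre-treated cells over LPS. With Dex late the medians were -0.07 in the Ifit window and -0.08 in the Cxcl window, and their sign changed when single libraries were left out.

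The cells were primary macrophages grown from the bone marrow of C57BL/6J mice. The groups were Dex given before an 8 h LPS treatment (pre-treated, 2 libraries), Dex given late in an 8 h LPS treatment (late-treated, 2 libraries) and 8 h of LPS alone (2 libraries). All cells therefore received LPS, and cells without LPS, or with Dex alone, were not analysed here. Dex is the glucocorticoid of the study. The labels give no Dex dose, no interval and no number of animals behind a library. The series title asks about the timing of glucocorticoid treatment.

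LPS, a component of bacterial cell walls, signals through Toll-like receptor 4 and makes macrophages release type I interferon, which acts back on the same cells through the transcription factor complex ISGF3. ISGF3 and the interferon regulatory factors (IRFs) bind the interferon-stimulated response element (ISRE), while NF-kB binds kB sites. The Ifit proteins bind foreign RNA and restrict its translation. Cxcl9, Cxcl10 and Cxcl11 are ligands of the receptor Cxcr3 and attract activated T cells. The glucocorticoid receptor is a ligand-activated transcription factor, known for repressing inflammatory genes in macrophages. Cxcl11 is annotated as a transcribed pseudogene in the RefSeq table for this mouse reference strain.

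The RefSeq promoters of these genes differ in the motifs they hold, and 4 are shown because they span this range. Sequences run from 250 bases before to 50 bases after an annotated start, 5′ to 3′ on the strand of the gene, in the GRCm38.p6 build, which is not the build of the hotspots. Promoter entries matched 5 of the 6 genes, all but Cxcl11. Capitals mark ISRE matches (GAAA, any 2 bases, GAAA, or its reverse complement) and kB matches. The Ifit3 promoter lies at chr19:34583279-34583578 on the plus strand, that of Ifit1 at chr19:34640639-34640938 on the plus strand, that of Cxcl10 at chr5:92348840-92349139 on the minus strand, and that of Cxcl9 at chr5:92328030-92328329 on the minus strand (all GRCm38.p6).
Ifit3: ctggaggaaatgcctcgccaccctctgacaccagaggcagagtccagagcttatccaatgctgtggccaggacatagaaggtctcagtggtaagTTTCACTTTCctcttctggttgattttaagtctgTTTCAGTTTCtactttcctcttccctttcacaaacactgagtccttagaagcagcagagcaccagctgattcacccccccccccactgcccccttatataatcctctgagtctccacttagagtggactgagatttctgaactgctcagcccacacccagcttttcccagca
Ifit1: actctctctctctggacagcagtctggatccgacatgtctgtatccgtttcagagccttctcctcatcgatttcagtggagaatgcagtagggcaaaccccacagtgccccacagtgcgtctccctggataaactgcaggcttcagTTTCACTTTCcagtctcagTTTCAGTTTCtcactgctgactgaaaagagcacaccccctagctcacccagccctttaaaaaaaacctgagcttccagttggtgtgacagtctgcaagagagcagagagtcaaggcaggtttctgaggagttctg
Cxcl10: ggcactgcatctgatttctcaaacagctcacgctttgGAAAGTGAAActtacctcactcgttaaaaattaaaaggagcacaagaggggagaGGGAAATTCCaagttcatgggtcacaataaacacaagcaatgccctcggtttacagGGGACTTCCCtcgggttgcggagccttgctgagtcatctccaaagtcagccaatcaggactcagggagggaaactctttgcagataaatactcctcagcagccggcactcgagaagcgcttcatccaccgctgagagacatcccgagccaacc
Cxcl9: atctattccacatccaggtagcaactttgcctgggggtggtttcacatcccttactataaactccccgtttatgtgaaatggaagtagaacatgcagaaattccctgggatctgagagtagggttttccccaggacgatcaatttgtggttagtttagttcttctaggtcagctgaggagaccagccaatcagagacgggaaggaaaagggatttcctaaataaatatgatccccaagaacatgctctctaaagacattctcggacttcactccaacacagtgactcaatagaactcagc

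Ifit3 and Ifit1 each held 2 ISRE matches. They lay at -156 to -147 and -122 to -113 in Ifit3, and at -104 to -95 and -85 to -76 in Ifit1, with the first base after the upstream stretch counted as 0. Cxcl10 held 1 ISRE match at -213 to -204 and 2 kB matches at -159 to -150 and -103 to -94. The Cxcl9 promoter held neither, and neither did the 2 promoter entries of Ifit2. At least 1 ISRE match was found in 3.44% of the 32851 mouse promoters of this length, and 2 or more in 0.225%. For kB these shares were 4.51% and 0.554%. The AP-1 motif (TGANTCA) was matched in Ifit3, Cxcl10 and Cxcl9, and in 7.81% of all promoters. The interferon-gamma activated site (GAS; TTC and GAA with any 3 bases between them) was matched in the first Ifit2 entry, and in 8.3% of all promoters. A glucocorticoid response element (GNACA and TGTNC with any 3 bases between them) was matched in none of these promoters, and in 0.475% of all. Both strands were searched, and in the promoters of the 6 genes no ISRE match overlapped a kB match. A match describes letters and not a bound site.

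Between Ifit2 and Ifit1 the RefSeq gene order also holds the paralogs Ifit1bl1, Ifit3b and Ifit1bl2 and the pseudogene Cnn2-ps, and between Cxcl9 and Cxcl10 it holds Art3. The promoter of Ifit3b shares an identical run of 169 bases with that of Ifit3, both ISRE matches included. One promoter entry of Ifit1bl2 is the opposite strand of the Ifit1 promoter over 245 bases. The reads were 51 bp long, so a read inside the run shared by Ifit3 and Ifit3b cannot be placed between them. How such reads were treated is not given in the sources used here, and its part in the values of the Ifit window was not tested.

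The lists differed in length across the whole genome. They held 34646 and 44686 hotspots in the pre-treated group, 29347 and 44447 in the late-treated group, and 48084 and 51834 in the LPS libraries. The lowest z-score listed was 9.34 and 9.16, 11.6 and 8.98, and 7.98 and 8.35 in the same order. Replicate 1 of the late-treated group stood apart as the shortest list with the highest lowest z-score, and it listed 27441 of the 59069 regions (46.5%) against 71.6% for replicate 2 of its group. Tag totals are unknown, and no counting interval was computed. Almost all maximum densities fell on whole multiples of a step of each library. The step was 0.4118 and 0.3797 pre-treated, 0.4002 and 0.4428 late-treated, and 0.3344 and 0.3471 with LPS alone. Both LPS libraries thus had the smallest steps. What the step stands for is not stated, and its part in the counts and lengths below was not tested. The lists cannot tell fewer cells with an accessible site from less cutting per cell. All 6 libraries listed 25091 regions (42.5%), called shared regions here. The labels do not tell whether replicates are separate animals or separate cultures, and the p-values therefore cover library-to-library spread alone, part of which may be technical.

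The question for both windows is whether Dex, before or late, goes with a different set or strength of accessible regions than LPS alone. In the Ifit window 17 and 19 hotspots were listed in the pre-treated libraries, 12 and 21 in the late-treated libraries, against 23 and 24 in the LPS libraries. Both LPS libraries thus listed more than any Dex library. The means were 18.0 ± 1.41 pre-treated, 16.5 ± 6.36 late-treated and 23.5 ± 0.707 with LPS alone (SD, n = 2 each). In the Cxcl window the counts were 10 and 10 in the pre-treated libraries, 9 and 10 in the late-treated libraries, against 12 and 12 in the LPS libraries. For either Dex group against LPS, in either window, the exact two-sided permutation p was 0.333, the smallest that 2 against 2 libraries can give. Pre-treated and late-treated numbers gave an exact permutation p of 1.0 in both windows. With late-treated replicate 1 left out, the late-treated difference from LPS was -2.5 hotspots in the Ifit window, against -7.0 with it.

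List length moves with these counts. When each list was cut to its 29347 strongest hotspots by z-score, the Ifit window held 13 and 12 hotspots in the pre-treated libraries, 12 and 12 in the late-treated libraries, against 12 and 10 in the LPS libraries. The difference from LPS then had the opposite sign, +1.5 hotspots for pre-treated cells and +1.0 for late-treated cells. In the Cxcl window the equal lists held 7 and 7 pre-treated hotspots, 9 and 8 late-treated hotspots, and 8 and 8 hotspots with LPS alone. The lower count in pre-treated cells was still present there, and the late-treated count was 0.5 above that of LPS.

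**Figure D1:**
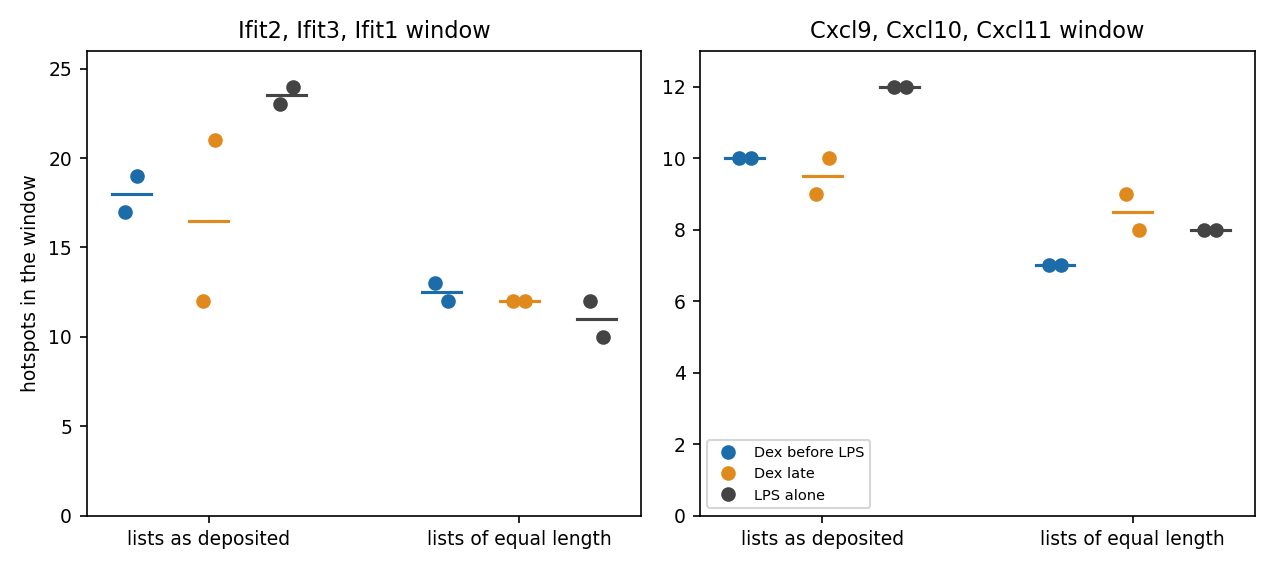
Number of hotspots in each window (vertical axis, from 0) in each library (points) with the group mean (line), for the lists as deposited and for lists of equal length. In the deposited lists both LPS libraries lie above every Dex library, while in equal lists the Ifit window runs from 10 to 13 in all libraries.

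Of the 27 Ifit regions 12 were shared by all 6 lists (44.4%), and of the 13 Cxcl regions 7 were (53.8%), beside 42.5% of all regions. The other 15 Ifit and 6 Cxcl regions ranked in the lower part by z-score of the lists that held them, where none passed the 47.3rd percentile in the Ifit window or the 49.2nd in the Cxcl window. By maximum density some ranked in the upper part, up to the 72.7th percentile (Ifit region at 0.1 kb, pre-treated replicate 2) and the 63.7th percentile (Cxcl region at 41.1 kb, LPS replicate 2). Their maximum density lay between 5.35 and 20.5 in the Ifit window and between 4.51 and 14.6 in the Cxcl window. Shared regions reached a maximum density of 39.6 in the Ifit window and 39.2 in the Cxcl window. Replicate 1 of the late-treated group listed none of these 21 regions.

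Few regions were listed by both libraries of 1 group and neither of another. No region of either window was in both pre-treated lists and neither LPS list, a class that holds 0.957% of all regions. The reverse, both LPS lists and neither pre-treated list, held 2 Ifit regions and 1 Cxcl region, 7.41% and 7.69% of the windows' regions beside 8.48% of all. These were the Ifit regions at 4.7 kb (chr19:34594703-34595381) and 136.3 kb (chr19:34726304-34727000) and the Cxcl region at 27.4 kb (chr5:92747358-92747931). Neither window had a region in both late-treated lists and neither LPS list (0.547% of all regions). In both LPS lists and neither late-treated list were the Ifit region at 32.5 kb (chr19:34622489-34622958) and again the Cxcl region at 27.4 kb, which is 3.7% and 7.69% of the windows' regions beside 9.22% of all. The Cxcl region at 27.4 kb had maximum densities of 7.69 and 10.8 in the LPS libraries, with z-scores of 8.57 and 13.01. The lowest z-scores of the Dex lists lie above the first of these. Between the Dex groups no region was exclusive in either direction, beside 1.53% of all regions for pre-treated only and 0.35% for late-treated only. These shares lie near or below the background.

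**Figure D2:**
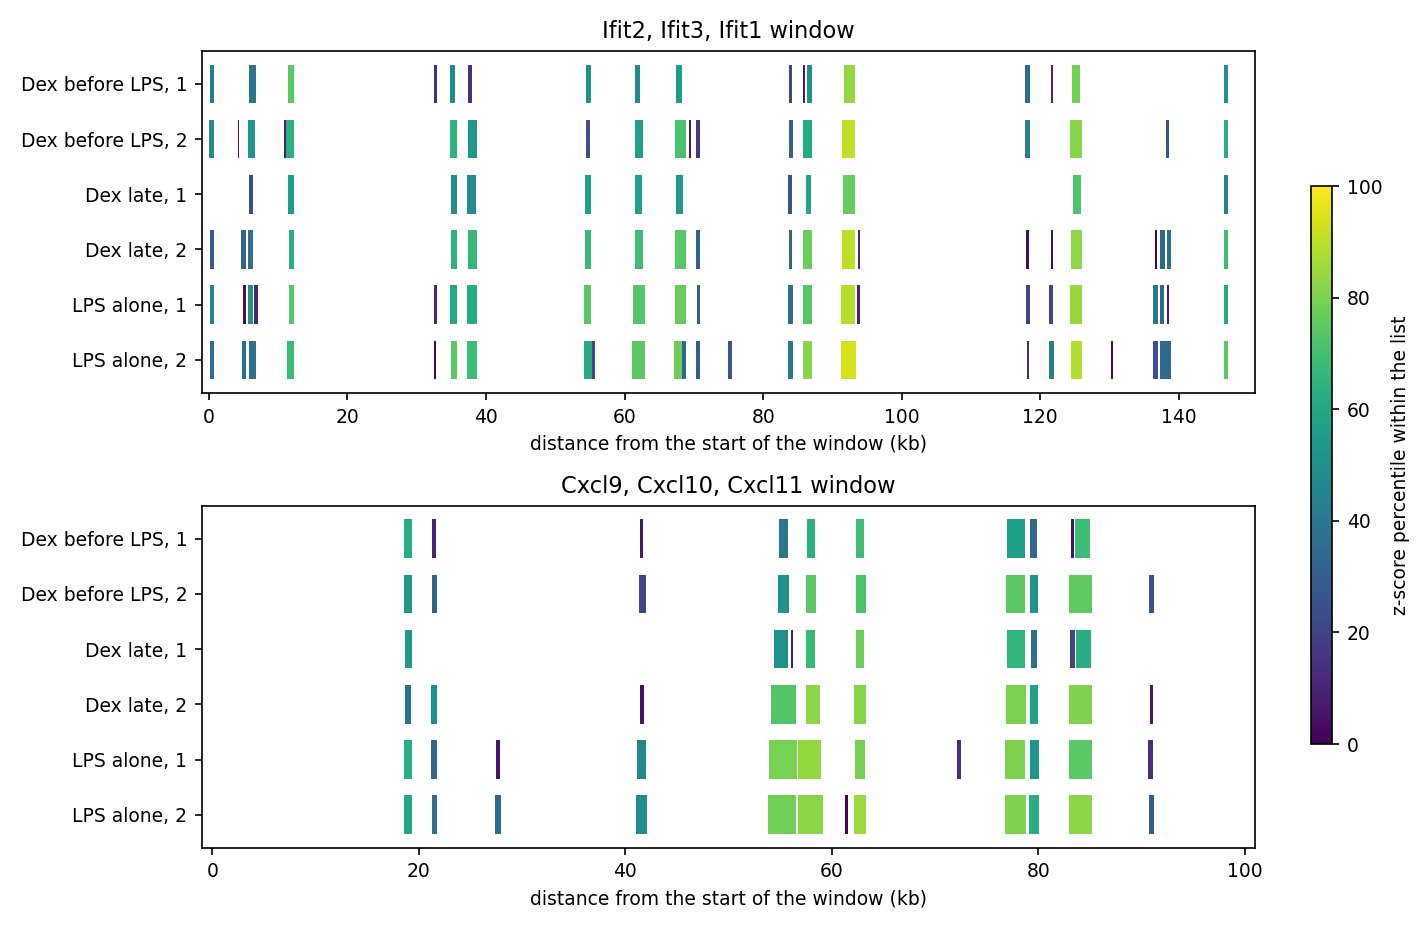
Hotspots of both windows in each library, drawn to scale against the distance from the window start in kb, with colour for the percentile of the z-score within its list. The same series of stronger regions appears in all 6 libraries, and the hotspots at 54 and 57 kb of the Cxcl window are visibly shorter in the pre-treated libraries than with LPS alone.

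In the Ifit window the 3 regions of highest mean maximum density lay at 91.3, 124.3 and 146.5 kb. Maximum density is the highest tag density within a hotspot, as the authors deposited it. The region at 91.3 kb (chr19:34681251-34683367) had the highest z-score of the window in every library. Its maximum density was 23.9 and 30.4 in the pre-treated libraries, 18.8 and 26.6 in the late-treated libraries, against 27.8 and 29.5 in the LPS libraries. Before scaling the pre-treated values span those of LPS, and both late-treated values lie below them. After quantile normalization all groups overlap. Its log2 fold change was -0.11 ± 0.26 pre-treated over LPS and -0.33 ± 0.26 late-treated over LPS (SE; limma, adjusted p = 0.981 and 0.89).

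The region at 124.3 kb (chr19:34714322-34715966) had maximum densities of 24.3 and 31.1 in the pre-treated libraries, 23.2 and 29.2 in the late-treated libraries, against 31.8 and 39.6 in the LPS libraries. All 4 Dex values lie below both LPS values before scaling, and after quantile normalization the pre-treated and LPS values overlap. The fold changes over LPS were -0.43 ± 0.27 pre-treated and -0.46 ± 0.27 late-treated on the log2 scale (SE; limma, adjusted p = 0.762 and 0.776). At 146.5 kb (chr19:34736453-34737130) the maximum density was 22.2 and 27.7 pre-treated, 22.4 and 31.0 late-treated, and 23.4 and 33.7 with LPS alone, with overlap between all groups. Its fold changes over LPS were -0.22 ± 0.29 pre-treated and -0.08 ± 0.29 late-treated on the log2 scale (SE; limma, adjusted p = 0.948 and 0.997).

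The largest differences between pre-treated cells and LPS in the Ifit window were at 3 other regions, which were chosen after their values were seen. The region at 85.7 kb (chr19:34675689-34677116) had maximum densities of 16.1 and 16.7 in the pre-treated libraries, 22.0 and 28.8 in the late-treated libraries, against 23.1 and 37.1 in the LPS libraries. Both pre-treated libraries lie below the other 4, and the late-treated and LPS values overlap. The fold change of pre-treated cells over LPS was -0.91 ± 0.29 on the log2 scale, with an unadjusted p of 0.0086 and an adjusted p of 0.279 (SE; limma over 25091 regions). Over the alternatives it ran from -1.33 to -0.13, negative in every one, with adjusted p from 0.0533 to 1.0.

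At 54.2 kb (chr19:34644182-34645238) the maximum density was 17.3 and 11.0 in the pre-treated libraries, 22.8 and 27.9 in the late-treated libraries, against 26.4 and 19.4 in the LPS libraries. Pre-treated values were again the lowest of the 6. The log2 fold change was -0.71 ± 0.29 pre-treated over LPS and -0.92 ± 0.29 pre-treated over late-treated (SE; limma, adjusted p = 0.462 and 1.0). Without pre-treated replicate 2 these were -0.31 and -0.53, and without pre-treated replicate 1 they were -1.09 and -1.30. The region at 37.3 kb (chr19:34627257-34628694) had 9.06 and 22.4 in the pre-treated libraries, 17.6 and 30.6 in the late-treated libraries, against 21.1 and 29.2 in the LPS libraries. Here 1 pre-treated library was low and the other lay between the LPS values. Its log2 fold change pre-treated over LPS was -0.79 ± 0.36 (SE; limma, adjusted p = 0.555), from -1.36 without pre-treated replicate 2 to -0.22 without pre-treated replicate 1. Over the alternatives its adjusted p ran from 0.0433 to 1.0.

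The remaining 6 shared Ifit regions had log2 fold changes over LPS from -0.37 to 0.13 pre-treated and from -0.26 to 0.23 late-treated. The lowest pre-treated value was at 61.1 kb, -0.37 ± 0.24 (SE; limma, adjusted p = 0.777). There both pre-treated libraries lay below every other library after normalization. The only shared Ifit region with a positive fold change in pre-treated cells was the weak one at 83.5 kb (chr19:34673542-34674244). Its maximum density was 8.24 and 10.3 pre-treated, 10.8 and 9.3 late-treated, and 8.7 and 8.33 with LPS alone.

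In the Cxcl window the 3 regions of highest mean maximum density lay at 56.7, 62.1 and 76.7 kb. The region at 56.7 kb (chr5:92776736-92779110) had maximum densities of 18.1 and 21.3 in the pre-treated libraries, 22.0 and 27.5 in the late-treated libraries, against 27.8 and 27.8 in the LPS libraries. Pre-treated values were the lowest, late-treated values lay between, and no groups overlapped before scaling. The fold change over LPS was -0.52 ± 0.24 pre-treated and -0.15 ± 0.24 late-treated on the log2 scale (SE; limma, adjusted p = 0.545 and 0.978).

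Its neighbour at 53.9 kb (chr5:92773868-92776588), chosen after its values were seen, had the lowest adjusted p of both windows. The maximum density was 13.6 and 13.3 in the pre-treated libraries, 16.0 and 19.04 in the late-treated libraries, against 24.4 and 25.3 in the LPS libraries. The 3 groups did not overlap, in the order pre-treated, late-treated, LPS alone from low to high. The log2 fold change over LPS was -0.90 ± 0.23 pre-treated, with an unadjusted p of 0.0019 and an adjusted p of 0.147, and -0.50 ± 0.23 late-treated, with an adjusted p of 0.64 (SE; limma over 25091 regions). Every alternative gave a negative value for pre-treated over LPS, from -1.38 to -0.52, with adjusted p from 0.0238 to 0.794.

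The region at 62.1 kb (chr5:92782139-92783283) differed in direction between the Dex groups. Its maximum density was 21.4 and 20.9 in the pre-treated libraries, 39.2 and 30.1 in the late-treated libraries, against 24.1 and 25.3 in the LPS libraries. Both pre-treated values lie below LPS and both late-treated values above it. The log2 fold change was -0.25 ± 0.23 pre-treated over LPS, 0.46 ± 0.23 late-treated over LPS and -0.71 ± 0.23 pre-treated over late-treated (SE; limma, adjusted p = 0.917, 0.685 and 1.0). Its z-score did not follow this order, at 32.4 and 30.6 pre-treated, 49.0 and 38.4 late-treated, and 39.1 and 41.7 with LPS alone. At 76.7 kb (chr5:92796740-92798789) the maximum density was 16.1 and 27.0 pre-treated, 25.6 and 30.6 late-treated, and 26.1 and 27.4 with LPS alone, so that 1 pre-treated library was low. Its log2 fold changes over LPS were -0.35 ± 0.27 pre-treated and 0.09 ± 0.27 late-treated (SE; limma, adjusted p = 0.861 and 0.994). Of the other 3 shared Cxcl regions the one at 79.1 kb (chr5:92799144-92800066) had both pre-treated values, 10.7 and 12.9, below both LPS values, 13.7 and 17.4. Those at 18.6 kb and 83.0 kb overlapped between all groups.

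**Figure D3:**
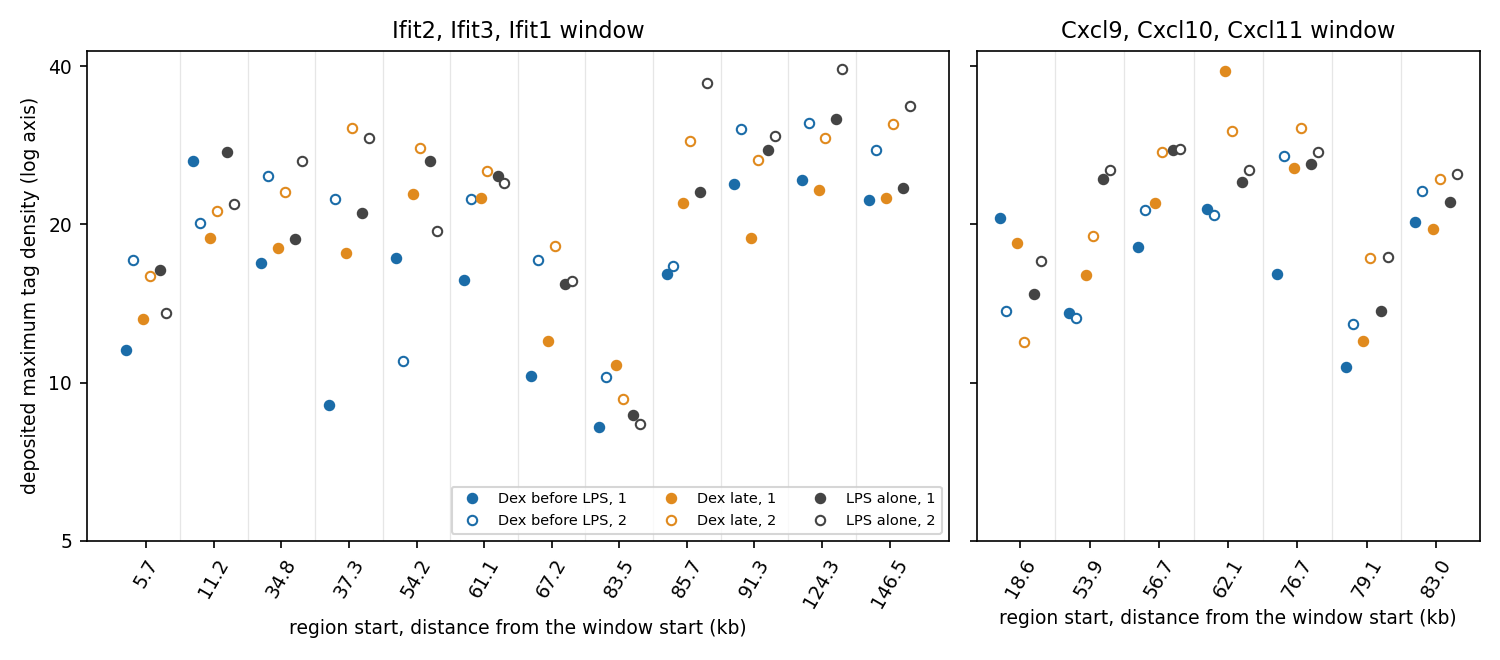
Deposited maximum tag density (log axis) at every shared region of both windows, in order along the window, with 1 point per library and colour for the group. Pre-treated points are the lowest at 54.2, 61.1 (by a small margin) and 85.7 kb of the Ifit window and at 53.9, 56.7 and 62.1 kb of the Cxcl window.

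Counted over the windows, pre-treated cells had a negative fold change over LPS at 11 of 12 Ifit regions and 6 of 7 Cxcl regions, beside 49.2% of all shared regions. None was called higher or lower by limma. Over all shared regions 63 were called higher (0.251%) and 27 lower (0.108%). Unadjusted p-values under 0.05 were found at 3 Ifit regions (37.3, 54.2 and 85.7 kb) and 2 Cxcl regions (53.9 and 56.7 kb), all lower in pre-treated cells. Of all 25091 shared regions 1212 were lower and 1025 higher at this unadjusted threshold. After normalization both pre-treated libraries lay below both LPS libraries at 3 Ifit regions (54.2, 61.1 and 85.7 kb) and 4 Cxcl regions (53.9, 56.7, 62.1 and 79.1 kb), and this was so at 18.6% of all shared regions. They lay above both at 1 Ifit region (83.5 kb) and 0 Cxcl regions (17.8% of all). Each window's regions share the same 6 libraries and lie next to each other, so they are not independent of each other.

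Late-treated cells had a negative fold change over LPS at 10 of 12 Ifit and 5 of 7 Cxcl regions, beside 50.9% of all shared regions, and most of these were small. The sign of the window medians depended on which library was used. Leaving out late-treated replicate 1 gave 0.019 (Ifit) and 0.045 (Cxcl), late-treated replicate 2 -0.28 and -0.21, LPS replicate 1 -0.24 and -0.22, and LPS replicate 2 0.022 and 0.059. None was called by limma, while over all shared regions 67 were called higher (0.267%) and 4 lower (0.0159%). Both late-treated libraries lay below both LPS libraries at 2 Ifit regions (11.2 and 124.3 kb) and 1 Cxcl region (53.9 kb), beside 17.8% of all shared regions, and above both at 0 Ifit regions and 1 Cxcl region (62.1 kb), beside 16.8% of all. At an unadjusted p under 0.05 only the Cxcl region at 53.9 kb was lower (limma, unadjusted p = 0.0495) and none was higher. Of all 25091 shared regions 937 were lower and 1018 higher at this unadjusted threshold. Both comparisons use the same LPS libraries.

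Set directly against each other, pre-treated over late-treated, the median log2 fold change was -0.12 in the Ifit window and -0.37 in the Cxcl window, beside 0.00 over all shared regions (0.00215 before rounding). With late-treated replicate 1 left out these medians were -0.25 and -0.46, and with late-treated replicate 2 left out 0.020 and -0.25. Both pre-treated libraries lay below both late-treated libraries at the same 3 Ifit and 4 Cxcl regions as against LPS (13.6% of all shared regions), and above both at none (13.3% of all). Limma called no region of either window, and none of all 25091 in either direction (0.0% each). At an unadjusted p under 0.05 there were 368 regions higher and 459 lower in the genome, with 2 lower in the Ifit window (54.2 and 85.7 kb) and 1 lower in the Cxcl window (62.1 kb). The 2 Dex groups were thus not told apart at these clusters by the test, which does not show that they are alike.

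**Figure D4:**
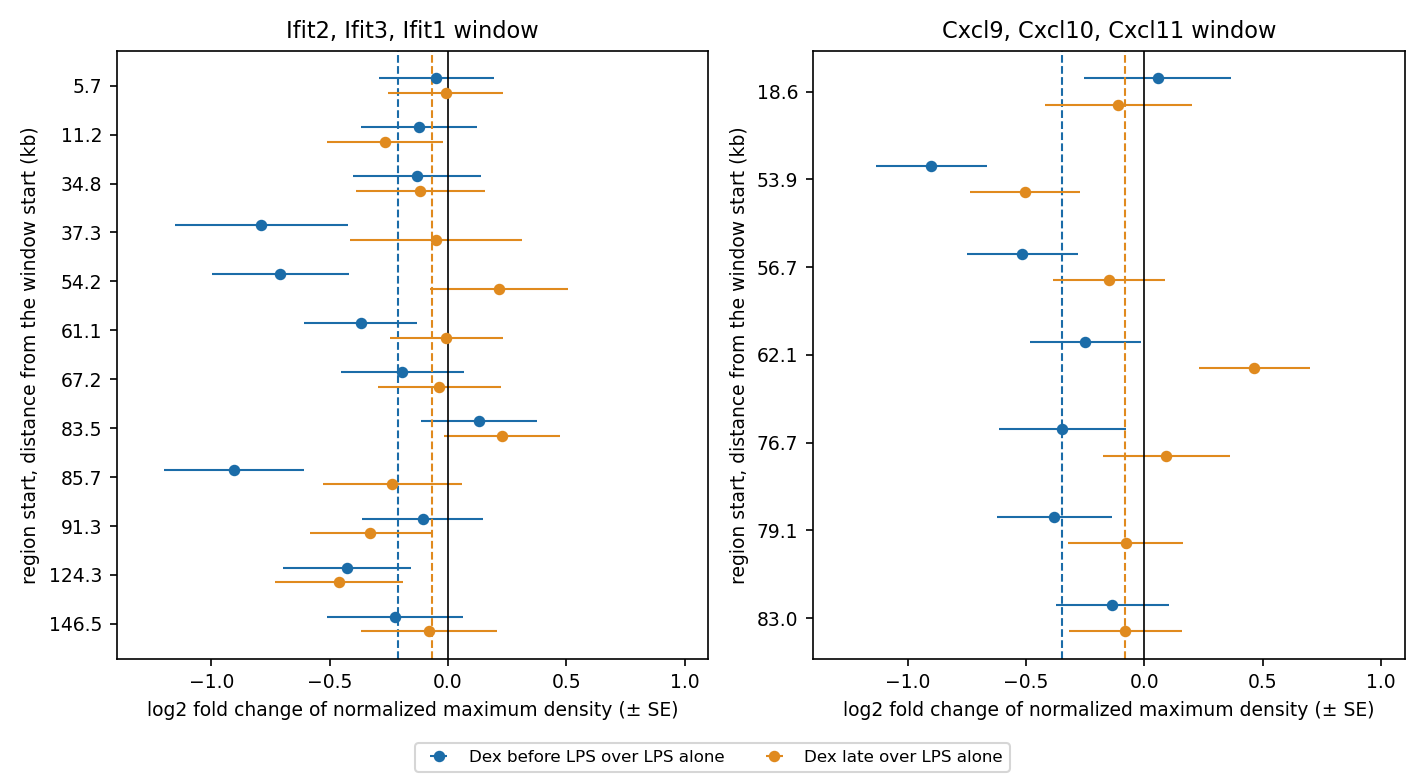
Log2 fold change of the normalized maximum density over LPS alone (horizontal axis, ± SE from limma) at every shared region, ordered by distance from the window start, for pre-treated and late-treated cells. Dashed lines mark the window medians, -0.21 and -0.35 for pre-treated cells in the Ifit and Cxcl windows, and -0.07 and -0.08 for late-treated cells.

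Hotspots also covered less length in Dex-treated cells, in these windows and over the genome. The length covered at a shared region, as a ratio of group means to LPS, had a median of 0.839 in the Ifit window and 0.809 in the Cxcl window for pre-treated cells, beside 0.915 over all shared regions. For late-treated cells it was 0.853 and 0.804, beside 0.859. Both pre-treated libraries were below both LPS libraries at 9 Ifit and 4 Cxcl regions (42.9% of all shared regions), and above both at none (5.06% of all). For late-treated cells these counts were 10 and 4 (56.8% of all) and again none above (1.96% of all). Pre-treated libraries were both below both late-treated libraries at 2 Ifit regions (37.3 and 54.2 kb) and 1 Cxcl region (53.9 kb), beside 2.64% of all, and both above at the Ifit region at 5.7 kb and the Cxcl region at 18.6 kb, beside 19.2% of all. The lists do not share a lowest z-score, and the part of that difference in the widths was not tested.

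For pre-treated cells the lowest of these ratios were at the adjoining Cxcl regions at 53.9 and 56.7 kb. At 53.9 kb the hotspots covered 881 and 993 bp in the pre-treated libraries, 1648 and 2409 bp in the late-treated libraries, against 2691 and 2692 bp in the LPS libraries. The 3 groups did not overlap. At 56.7 kb they covered 778 and 963 bp pre-treated, 873 and 1438 bp late-treated, and 2252 and 2341 bp with LPS alone. All 4 Dex values lie below both LPS values there. In the Ifit window the region at 61.1 kb (chr19:34651136-34653005) covered 631 and 1096 bp pre-treated, 991 and 1175 bp late-treated, and 1782 and 1839 bp with LPS alone. Summed over the window, hotspots of the Ifit window covered 12341 and 16956 bp pre-treated, 11101 and 17635 bp late-treated, and 19931 and 22055 bp with LPS alone. In the Cxcl window they covered 7970 and 10306 bp pre-treated, 8254 and 11632 bp late-treated, and 14290 and 14870 bp with LPS alone. All Dex sums lie below both LPS sums (exact two-sided permutation p = 0.333 for each Dex group against LPS in each window). In equal lists the Ifit sums overlapped, at 10729 and 13859 bp pre-treated, 11101 and 13350 bp late-treated, and 14545 and 13038 bp with LPS alone. Both Dex groups still lay below LPS in the Cxcl window, at 6999 and 8545 bp pre-treated, 8254 and 10971 bp late-treated, and 12531 and 13065 bp with LPS alone.

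Within-library rank does not depend on scale. The normalized values were themselves set by these ranks, so the percentiles restate the fold changes and are not separate support. Among the 25091 shared regions, the median percentile of the Ifit regions by normalized maximum density was 45.5 and 54.5 in the pre-treated libraries, 52.9 and 66.9 in the late-treated libraries, against 59.8 and 66.9 in the LPS libraries. That of the Cxcl regions was 50.3 and 53.7 pre-treated, 54.9 and 63.7 late-treated, and 61.4 and 67.3 with LPS alone. By this measure the pre-treated libraries rank below the LPS libraries in both windows. Late-treated replicate 1 also ranks below both LPS libraries, while late-treated replicate 2 lies between them. Ranks of all listed hotspots within each whole list differed from this in the Ifit window. The median Ifit percentile by z-score was 47.9 and 53.2 pre-treated, 53.9 and 37.8 late-treated, and 45.2 and 38.7 with LPS alone. By maximum density it was 53.0 and 65.7 pre-treated, against 66.4 and 64.6 with LPS alone. In the Cxcl window the pre-treated medians lay below LPS by both. These lists differ in length.

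By z-score the top Ifit hotspot, always the region at 91.3 kb, had 55.9 and 59.1 in the pre-treated libraries, 47.1 and 52.3 in the late-treated libraries, against 63.4 and 63.7 in the LPS libraries. It stood at the 83.8th and 90.2nd percentile of its list pre-treated, the 76.4th and 89.9th late-treated, and the 89.0th and 93.3rd with LPS alone. The highest z-score of the Cxcl window was 32.4 and 34.4 pre-treated, 49.0 and 39.4 late-treated, and 48.2 and 41.7 with LPS alone. It came from different regions, the one at 62.1 kb in replicate 1 of both Dex groups and LPS replicate 2, the one at 83.0 kb in pre-treated replicate 2, and the one at 56.7 kb in late-treated replicate 2 and LPS replicate 1. Over the shared regions the z-score ratio to LPS had a median of 0.883 in the Ifit window and 0.78 in the Cxcl window for pre-treated cells, beside 0.956 over all shared regions. For late-treated cells it was 0.921 and 0.927, beside 0.907. No source states that z-scores of different lists are comparable.

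A pair of Ifit regions, picked out after these values were seen, had a z-score per unit of maximum density above the genome-wide median in every library. The share of all shared regions for which this holds was not computed, so the values are a description. At 91.3 kb the z-score per unit of maximum density was 2.34 and 1.95 in the pre-treated libraries, 2.5 and 1.97 in the late-treated libraries, against 2.29 and 2.16 in the LPS libraries, between the 78.3rd and 97.2nd percentile of all shared regions. At 67.2 kb (chr19:34657190-34658939) it was 2.21 and 1.77 pre-treated, 2.13 and 1.68 late-treated, and 2.33 and 2.07 with LPS alone, between the 66.3rd and 93.4th percentile. The genome-wide median was between 1.47 and 1.71 in the 6 libraries. The region at 146.5 kb was at the other end, at most 0.951 in every library, at or under the 2.64th percentile of all shared regions. The groups overlapped at both of the first regions.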

How the data were processed

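DNase-seq libraries of mouse bone marrow-derived macrophages were read as 1 hotspot list per library, 2 per group. The submitters' processing notes name CASAVA and the mm9 build; aligner, hotspot caller and cutoff were not given in the sources used here. The deposited signal values are the maximum and average tag density of a hotspot, the deposited score is its z-score, and the deposited p-value was not used. Positions are printed as deposited, with an unknown first base (0 or 1).

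Hotspots sharing at least 1 position were merged, and a library's value at a region is that of its highest hotspot. At the 25091 shared regions log2 maximum density was quantile-normalized and fitted with limma 3.58.1 in R 4.3.3 over 3 groups, with Benjamini-Hochberg adjustment over all of them and a threshold of 0.05, after a check on simulated data. A region missing from any list was not tested. Window counts and lengths were compared by exact permutation, and presence was only counted. Regions with full values are the 3 of highest mean maximum density per window, plus 4 chosen after their values were seen, those with the largest difference or an unadjusted p under 0.05. The windows, gene lists and tests were chosen with earlier results of these data known. Marker genes and other interferon genes were not looked up, since no mm9 annotation was used; the cell type was thus not checked. Alternatives are given at the end, and those by z-score, average density or covered length were quantile-normalized in the same way.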

Additional observations from a re-analysis of the deposited data

Results flagged for a closer look

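The Cxcl region at 62.1 kb (chr5:92782139-92783283, mm9) stood out because the Dex groups moved in opposite directions from LPS alone. Both pre-treated libraries lay below both LPS libraries and both late-treated libraries lay above them. The pre-treated minus late-treated difference was -0.71 on the log2 scale (limma, adjusted p = 1.0, with 0.343 as the lowest over the alternatives), so it did not pass the test. Such opposite directions were found at 360 of the 25091 shared regions (1.43%) and at 1 of the 19 in these windows (5.26%). What goes with this pattern at the region was not tested.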

How the results depend on the processing

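No region of either window passed the threshold under any alternative except the replicate block. Maximum density as deposited or median-centred gave a median of all shared regions between -0.005 and 0.028 (log2) over the 3 comparisons. With the replicate number as a block, pre-treated over LPS called 408 regions higher and 427 lower in the genome, 1 Ifit region lower (37.3 kb, log2 fold change -0.79, adjusted p = 0.0433) and 1 Cxcl region lower (53.9 kb, -0.90, adjusted p = 0.0238). The block gave 339 higher and 188 lower for late-treated over LPS. Deviations of same-numbered libraries from their group means correlated at 0.452, 0.437 and 0.497, but with 2 numbers per group and no label that pairs them, the numbers are not taken to pair the libraries.

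Over the genome, pre-treated over LPS gave 63 calls higher and 27 lower as reported. The counts higher and lower were 12 and 4 after median-centring, 13 and 5 without scaling, 128 and 51 by z-score, 24 and 9 by average density, 5 and 3 by covered length (chosen after seeing the data), 3 and 1 with 50% cover, and 13 and 1 in equal lists. Late-treated over LPS, 67 and 4 as reported, gave 6 and 0, 19 and 1, 138 and 17, 26 and 2, 0 and 0, 7 and 0, and 13 and 0 in the same order. The libraries left out in turn gave 12 to 110 higher and 4 to 63 lower for pre-treated over LPS, with the lowest of both without LPS replicate 2. For late-treated over LPS they gave 10 to 88 higher and 0 to 9 lower, and for pre-treated over late-treated 0 to 1 higher.

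The window medians of pre-treated over LPS were negative under every alternative. The Cxcl median was -0.24 by average density and -0.15 by covered length, and ran from -0.44 to -0.21 with libraries left out (-0.21 without LPS replicate 2). The Ifit median ran from -0.40 to -0.12 with libraries left out, with -0.37 without pre-treated replicate 2 and -0.40 without LPS replicate 1, and was -0.098 by covered length. The Cxcl median of pre-treated over late-treated was -0.13 by covered length. For late-treated over LPS the medians lay within the spread of the reported ones but changed sign by z-score (0.044 for Ifit, 0.032 for Cxcl), average density (0.0057 for Cxcl) and covered length (0.039 for Ifit). These measures were quantile-normalized before the fit. As deposited, covered length in the Ifit window had a median late-treated to LPS ratio of 0.853.

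In equal lists the difference in hotspot number reversed to 1.5 (Ifit, pre-treated over LPS), 1.0 (Ifit, late-treated over LPS), 0.5 (Cxcl, late-treated over LPS) and -1.5 (Cxcl, pre-treated over late-treated). Pre-treated minus late-treated also changed sign with 1 library left out. It ran from -3.0 to 6.0 for Ifit hotspots, from -2986.5 to 3547.5 bp for Ifit length and from -2494.0 to 884.0 bp for Cxcl length. A window 50 kb wider on each side changed no direction.

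Regions in both LPS and neither pre-treated list became 0 in the Ifit window when hotspots up to 500 bp apart were merged and 0 in equal lists, and 3 in the Cxcl window with 50% cover. Those in both LPS and neither late-treated list became 5 (Ifit) and 2 (Cxcl) with 50% cover, and 0 (Ifit) in equal lists. In both pre-treated and neither late-treated list were 2 Ifit regions with 50% cover and 2 in equal lists, in both late-treated and neither pre-treated list 1 Cxcl region with 50% cover, and in both pre-treated and neither LPS list 1 Ifit region in equal lists. With libraries left out these counts ran, for Ifit, from 3 to 5 (LPS, not pre-treated), 1 to 8 (LPS, not late-treated), 0 to 3 (pre-treated, not LPS), 0 to 3 (pre-treated, not late-treated) and 0 to 3 (late-treated, not pre-treated). For Cxcl they ran from 1 to 2 (LPS, not pre-treated), 1 to 4 (LPS, not late-treated) and 0 to 2 (pre-treated, not late-treated). The highest counts against late-treated cells, 8 and 4, came without late-treated replicate 2.

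None of the fold changes of the 10 regions given in full passed the test as reported, and some changed sign under the alternatives. Z-score, average density and covered length were quantile-normalized in these fits. For late-treated over LPS the z-score gave 0.014 (85.7 kb), 0.090 (146.5 kb) and 0.19 (37.3 kb), average density gave 0.15 (56.7 kb) and -0.13 (76.7 kb), and covered length gave 0.077 (91.3 kb), 0.12 (146.5 kb) and 0.17 (37.3 kb). The deposited lengths were not longer there, with late-treated to LPS ratios under 1 at all 12 Ifit regions (at most 0.947). For pre-treated over LPS covered length gave 0.032 (76.7 kb) and 0.0045 (124.3 kb). As deposited, the lengths at 76.7 kb were 1804 and 1857 bp pre-treated against 1936 and 2049 bp with LPS alone. At 124.3 kb they were 1256 and 1643 bp against 1614 and 1574 bp. For pre-treated over late-treated average density gave -0.10 (124.3 kb), and covered length gave 0.12 (85.7 kb) and -0.16 (91.3 kb). With libraries left out, late-treated over LPS ran from -0.31 to 0.00066 (56.7 kb), -0.060 to 0.23 (76.7 kb), -0.45 to 0.33 (37.3 kb), -0.67 to 0.22 (85.7 kb) and -0.43 to 0.28 (146.5 kb). Pre-treated over LPS ran from -0.29 to 0.067 (91.3 kb) and -0.57 to 0.13 (146.5 kb). Pre-treated over late-treated ran from -0.0020 to 0.46 (91.3 kb), -0.15 to 0.21 (124.3 kb) and -0.38 to 0.11 (146.5 kb). The cause of these changes was not tested. Tag totals are unknown, so what depth limits was not tested.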
